A study of Mus musculus with 6 samples.

Results

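The P5-type ATPases are a small family of membrane pumps, and this account follows its 5 mouse genes, Atp13a1, Atp13a2, Atp13a3, Atp13a4 and Atp13a5, in differentiating muscle cells after knockdown of a long noncoding RNA. They were chosen by symbol: every array probe whose transcript accession belonged to one of these genes was taken, which gave 6 of the 39429 probes and 5 of the 20659 genes that could be named. Atp13a4 led to the choice of the family because of its difference between the knockdown and the control arrays. That difference, and those of its paralogs in the same comparison, are therefore given as descriptions: the SEs, intervals and calls printed for them come from the fit over all probes and support nothing about the choice.

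P-type ATPases couple the hydrolysis of ATP to transport by forming a phosphorylated aspartate in the pump itself. The P5 class has an A branch and a B branch. The A branch is Atp13a1, which in yeast and human cells sits in the endoplasmic reticulum (ER) and pulls wrongly placed transmembrane helices out of its membrane. The B branch holds the other members, which lie in endosomes and lysosomes. For human ATP13A2 and ATP13A3 the known cargo is polyamines, small positively charged molecules such as spermidine and spermine that cells need for growth and translation, and polyamine synthesis and uptake are regulated as myoblasts differentiate. Loss of human ATP13A2 causes a juvenile form of parkinsonism.

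The 6 samples were total RNA of C2C12, an established mouse myoblast line that fuses into myotubes when induced to differentiate. In 3 samples (si-lncMGPF) the cells carried an siRNA against lncMGPF, an RNA studied for its part in myogenic differentiation, and in 3 (si-NC) they carried a control siRNA. Differentiation had run for 2 days when RNA was taken, and it was read with Cy3 on 1-colour Agilent arrays. Only 1 cell line was used, and the labels leave the origin of the replicates unsaid. The errors and p-values given here therefore cover the scatter among these 6 samples, part or all of which may be technical. No probe carried the name lncMGPF, so the level of the knocked-down RNA itself was not checked here.

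Scan identifiers in the file headers put si-lncMGPF replicate 1 and the 3 si-NC arrays in scan 1 and si-lncMGPF replicates 2 and 3 in scan 2. Scan 2 was dimmer and had a higher floor: its arrays had a 75th percentile of 580.2 and 492.1 intensity units, against 688.2 to 930.7 for the 4 arrays of scan 1. Negative control spots averaged 27.2 and 32.5 units above local background in scan 2, against 12.7 to 13.8 in scan 1. Because scan 2 holds no si-NC array, its values cannot be separated from the knockdown there, and the members' differences are also given within scan 1. Of 13 skeletal muscle markers 12 were well above background on all 6 arrays, among them Myod1, Myog, Des and Ckm, and Actn2 on 5. The epithelial markers Epcam, Krt8 and Krt18 and the glial markers Slc1a2 and Olig2 were not above background on any array, while Krt5, Krt14, Aqp4, Aldh1l1, Syp and Snap25 were on all 6. So were 5 of the 7 leukocyte and endothelial markers on the array, with Cdh5 on none.

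Atp13a4 was the member that differed between the groups on every array. Its 2 probes report different RefSeq transcripts of the gene, and they behaved differently. The first, on transcript NM_001164612, was well above background on all 6 arrays. Its processed signal was 83.4, 47.0 and 42.7 intensity units on si-lncMGPF replicates 1, 2 and 3, against 267.8, 187.2 and 198.8 on si-NC replicates 1, 2 and 3. All si-lncMGPF values lay below all si-NC values. The error that the scanner software attached to each spot was 10.9% to 13.9% of the signal in si-lncMGPF and 10.1% in si-NC, and it does not cover the spread between samples. The difference was visible before any correction: the raw median of the spot was 112, 97 and 98 units in si-lncMGPF, against 284, 208 and 224 in si-NC, with a local background of 17 to 19 units.

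**Figure D1:**
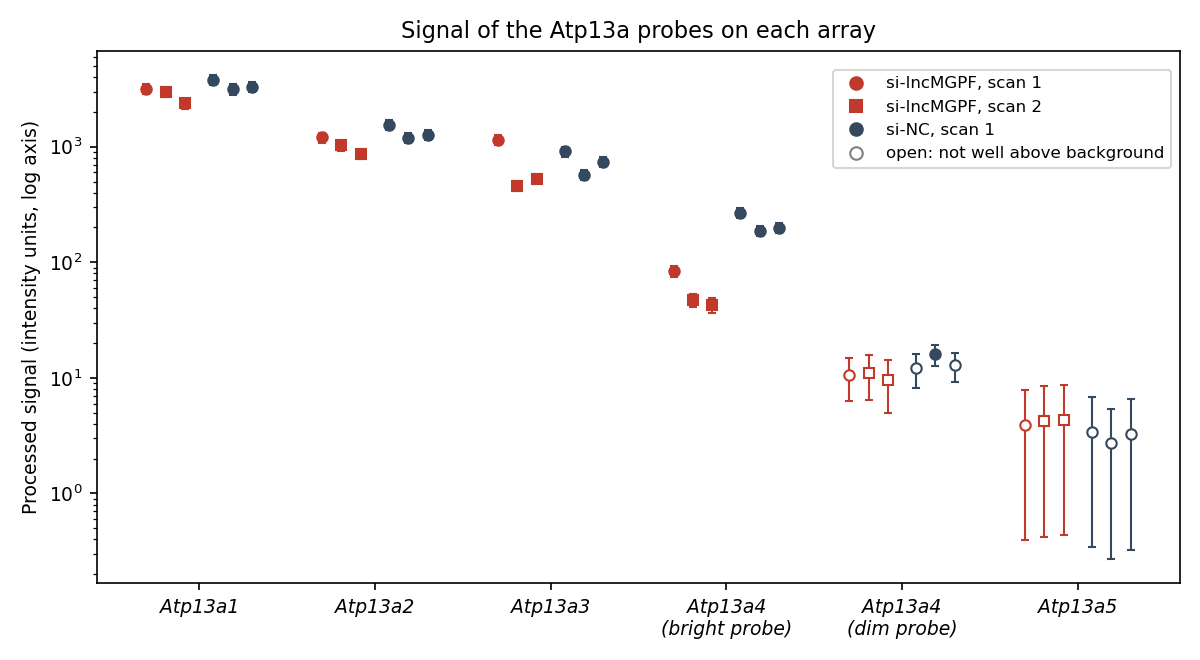
Processed signal (intensity units, log axis) of each Atp13a probe on each of the 6 arrays, with si-lncMGPF in red and si-NC in dark blue, circles for scan 1 and squares for scan 2. Bars are the error given by the scanner software, cut short where they would reach 0, and open symbols were not well above background; heights of different probes cannot be set against each other. For the first Atp13a4 probe the si-lncMGPF arrays read 42.7 to 83.4 and the si-NC arrays 187.2 to 267.8.

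Arrays were put on 1 scale by dividing each signal by the array's 75th percentile and taking log2, called the log2 normalised signal below. On this scale the first Atp13a4 probe had -3.47, -3.63 and -3.53 on si-lncMGPF replicates 1, 2 and 3, against -1.80, -1.88 and -1.93 on the si-NC replicates. The means were -3.54 ± 0.08 in si-lncMGPF and -1.87 ± 0.07 in si-NC (SD, n = 3 each). The 3 si-lncMGPF arrays therefore held 33.0%, 29.5% and 31.6% of the si-NC mean. The fitted log2 change, si-lncMGPF minus si-NC, was -1.67 (limma, SE 0.09, 95% interval -1.89 to -1.46), or 3.19-fold lower.

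How alike the scans were for Atp13a4 depended on the background correction. In scan 1, where 1 si-lncMGPF array stands beside the 3 si-NC arrays, the log2 difference from the si-NC mean was -1.60, and for the scan 2 arrays against the same si-NC mean it was -1.71. With normexp background correction at an offset of 50, described further on, the si-lncMGPF array of scan 1 had -1.13 and those of scan 2 had -0.86 and -0.66. At an offset of 0 the scan 1 array had -1.47, and the scan 2 arrays -1.37 and -1.16. Without normexp, within si-lncMGPF the scan 2 arrays differed from the scan 1 array by -0.11 for Atp13a4. Over all tested probes the middle 90% of that difference between scans ran from -0.85 to 0.52. Of the 24661 tested probes 52 had a lower fitted change than Atp13a4. The number was 13 of 24629 within scan 1, which rests on 1 si-lncMGPF array, and 199 of 24633 for the scan 2 arrays.

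The second Atp13a4 probe, on transcript NM_001164613, was close to background. It was well above background on 0 of 3 si-lncMGPF arrays and on 1 of 3 si-NC arrays, replicate 2. Its processed signal was 10.6, 11.1 and 9.60 units in si-lncMGPF, against 12.2, 16.0 and 12.8 in si-NC, with an error of 40.7% to 47.8% of the signal in si-lncMGPF and 20.7% to 32.4% in si-NC. The processed signals did not overlap, but by gaps within these errors. After scaling the groups did overlap, at -6.44, -5.71 and -5.68 in si-lncMGPF, against -6.26, -5.43 and -5.88 in si-NC. The probe was not tested, and the fall of Atp13a4 rests on the first probe alone. Which exons the 2 probes read is not given in the sources used here.

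Atp13a1, the ER member, was bright on every array. Its log2 normalised signal was 1.79, 2.37 and 2.27 on si-lncMGPF replicates 1, 2 and 3, against 2.03, 2.19 and 2.12 on the si-NC replicates. Replicate 1 of si-lncMGPF lay below the si-NC range and replicates 2 and 3 lay above it. The fitted log2 change was 0.03 (limma, SE 0.16, 95% interval -0.36 to 0.42), made up of -0.33 in scan 1 and 0.20 for the scan 2 arrays against the same si-NC mean.

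Atp13a2, the lysosomal polyamine exporter in human cells, showed the same split by scan. It had 0.38, 0.83 and 0.81 in si-lncMGPF, against 0.73, 0.79 and 0.75 in si-NC on the log2 normalised scale. Replicate 1 of si-lncMGPF lay below the si-NC range, and replicates 2 and 3 lay just above it. The SD was 0.25 in si-lncMGPF and 0.03 in si-NC. The fitted log2 change was -0.08 (limma, SE 0.14, 95% interval -0.41 to 0.24), with -0.38 in scan 1 and 0.06 for the scan 2 arrays.

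Atp13a3, an endosomal member tied to polyamine uptake in human cells, went the other way in scan 1. Its log2 normalised signal was 0.32, -0.33 and 0.11 in si-lncMGPF, against -0.03, -0.27 and -0.04 in si-NC. Replicates 1 and 3 of si-lncMGPF lay above the si-NC range and replicate 2 lay below it. The fitted log2 change was 0.14 (limma, SE 0.18, 95% interval -0.28 to 0.57), with 0.43 in scan 1 and less than 0.01 for the scan 2 arrays.

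For these 3 paralogs the intervals ran from -0.41 at the lowest to 0.57 at the highest on the log2 scale. None of them reaches the size seen for Atp13a4, but only 52 of 24661 tested probes had a lower change. Atp13a4 was chosen for that size, so nothing is read from this. Within si-lncMGPF, scan 2 minus scan 1 sets replicates 2 and 3 against replicate 1 alone. That difference was 0.53 for Atp13a1, 0.44 for Atp13a2 and -0.43 for Atp13a3, in each case larger than the fitted change between the groups. For Atp13a3 the scan 2 arrays also lay apart from each other, at -0.33 and 0.11. In scan 1 the si-lncMGPF array lay outside the si-NC range for all 4 tested members, below it for Atp13a1, Atp13a2 and Atp13a4 and above it for Atp13a3. It did so for 75.8% of all tested probes, 43.2% below and 32.6% above.

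**Figure D2:**
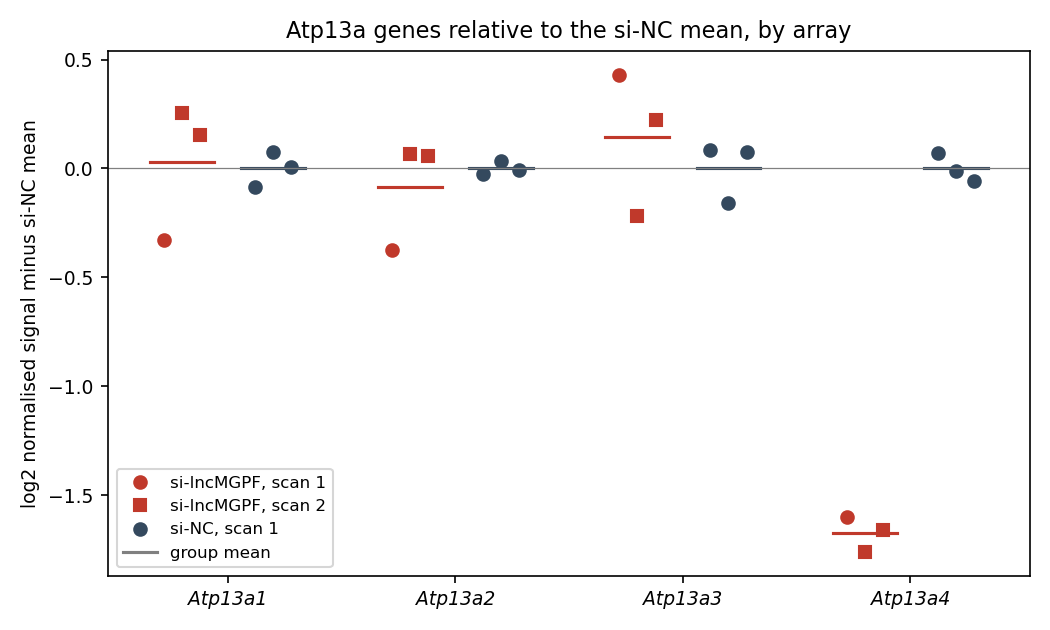
Log2 normalised signal of the 4 tested Atp13a genes on each array minus the si-NC mean of that gene, with si-lncMGPF in red left of si-NC in dark blue, circles for scan 1, squares for scan 2 and lines for group means. The 3 si-lncMGPF arrays of Atp13a4 lie between -1.76 and -1.60, while those of the paralogs fall on both sides of 0.

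Atp13a5, the member next to Atp13a4 in the genome and known in mouse as a marker of brain pericytes, was not well above background on any of the 6 arrays. Its processed signal was 3.93, 4.24 and 4.34 units in si-lncMGPF, against 3.41, 2.71 and 3.26 in si-NC, with an error as large as the signal (99.6% to 100.01% of it). The si-lncMGPF values were the higher ones, by less than that error. No fold is given, since both groups were below the background limit.

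Of the 6 probes 4 were tested, each for a different gene, and 1 of them, Atp13a4, passed limma's threshold of an adjusted p below 0.05. Over all probes 0.105% passed, 0.077% lower and 0.0284% higher in si-lncMGPF. All 3 si-lncMGPF arrays lay below all 3 si-NC arrays for Atp13a4 as for 13.3% of all tested probes, all 3 lay above for 9.56%, and the groups did not overlap in either direction for 22.9%. Atp13a4 was chosen for this difference, so nothing is read from these shares. The call also depended on which array was left out: without si-lncMGPF replicate 3, or without si-NC replicate 1, 2 or 3, the log2 change was -1.68, -1.64, -1.68 and -1.70 but the adjusted p from limma was 0.101, 0.138, 0.133 and 0.113. Without si-lncMGPF replicate 1 or 2 it passed, at -1.71 and -1.63. Background correction by normexp with an offset of 50 gave a log2 change of -0.88 that did not pass (limma, adjusted p = 0.187; over all alternatives from 0.00138 to 0.187).

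**Figure D3:**
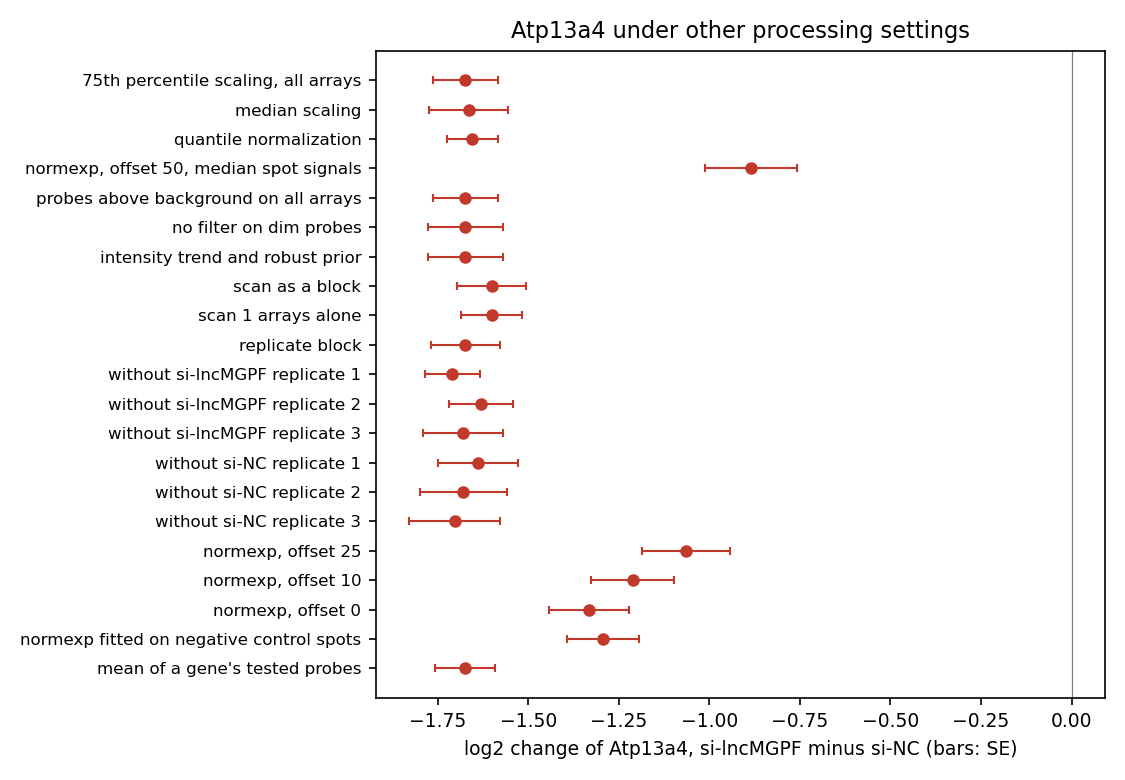
Log2 change of Atp13a4 (horizontal axis, si-lncMGPF minus si-NC) under each processing setting, 1 point a setting, with bars for the SE. All points are negative; the settings with normexp background correction run from -1.33 to -0.88 and the others from -1.71 to -1.60.

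Markers of other cell types were set beside this fall, since Atp13a4 is also known from epithelial and glial cells. The summed signal of the 8 glial and neuronal markers was taken as a multiple of the array's 75th percentile. It was 4.60 times on si-lncMGPF replicate 1, of scan 1, and 4.13 and 3.77 times on replicates 2 and 3, of scan 2. In si-NC it was 4.79 to 5.97 times. Syp and Snap25, at a mean log2 normalised signal of 1.61 and 0.70 in si-NC, weighed most in this sum. Gfap, Rbfox3, Slc1a2 and Olig2 were not tested. All 4 tested members had a negative log2 change, as had 6564 of 14265 named genes. Of these 4, Snap25, a synaptic vesicle fusion protein, had -1.03 (SE 0.23) and Aqp4, a water channel, -0.39 (SE 0.14), neither past the threshold. In scan 1, on 1 si-lncMGPF array, Snap25 had -0.50 and Aqp4 -0.14, against -1.30 and -0.52 for the scan 2 arrays. Syp had -0.18 in scan 1 and -0.21 for the scan 2 arrays, and Aldh1l1 -0.26 and -0.16. The 6 epithelial markers summed to 0.201 to 0.283 times in si-lncMGPF, against 0.253 to 0.293 in si-NC. The 7 leukocyte and endothelial markers summed to 2.53 to 2.82 times in si-lncMGPF, against 2.20 to 2.89 in si-NC, and the 13 muscle markers to 121.3 to 147.7 times, against 140.3 to 151.4. The part of these markers in the Atp13a4 result was not tested. In RNA from whole cultures, fewer cells of a type and less RNA per cell cannot be told apart.

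Genes around Atp13a4 in the RefSeq order (assembly GRCm38.p6, used for names and order only because the array was annotated on mm9) had few usable probes. Of the 10 nearest annotated genes 4 had a probe and 2 had one that was tested. Opa1, which drives fusion of mitochondrial inner membranes, lies on one side and had a log2 change of -0.16 (SE 0.08) on 1 probe and 0.03 (SE 0.10) on another. Mb21d2, on the side of Atp13a5, had -0.37 (SE 0.16) and was well above background on 3 of 6 arrays. As testing needed a whole group above background, these were all the arrays of 1 group. Its log2 change therefore sets that group against values not well above background. Neither gene passed over all probes (limma, adjusted p = 0.322 for Mb21d2, 0.381 and 0.898 for Opa1). Plaat1, a phospholipid-modifying enzyme beside Atp13a5, was not above background on any array. Atp13a3 lies on the same chromosome with 20 annotated genes between it and Atp13a4.

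Genes that handle the cargo of the B branch were examined next. Of 29 genes of polyamine metabolism and transport 23 were tested, and 0 passed the threshold over all probes (limma; 1 at an unadjusted p below 0.05), where 0.147% of all 14265 named genes passed. Their median log2 change was 0.09, with 15 positive and 8 negative. Over all named genes it was 0.02, with 7701 positive and 6564 negative. The median of the list was -0.10 in scan 1 and 0.17 for the scan 2 arrays. Over all named genes it was -0.07 in scan 1 and 0.06 for the scan 2 arrays. The largest differences among the list genes above background on all arrays were taken at each gene's brightest probe. They belonged to Eif5a (0.37, SE 0.08, limma adjusted p = 0.191), Mtap (0.34, SE 0.20) and Slc12a8 (0.24, SE 0.24). A second Slc12a8 probe had 0.37 (SE 0.32). Eif5a is the translation factor that carries the spermidine-derived residue hypusine. Mtap salvages the by-product of polyamine synthesis, and Slc12a8 is linked to polyamine transport in human cells. Eif5a had 0.32 on the 1 si-lncMGPF array of scan 1 and 0.40 for the scan 2 arrays, both against the same si-NC mean.

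The enzymes that set polyamine levels, named here after their values were seen, showed small differences on their brightest probes. Odc1, which makes putrescine, had -0.10 (SE 0.09) on the probe with its highest mean signal but 0.44 (SE 0.25) and 0.28 (SE 0.10) on 2 others, so its direction is not settled by these probes. Srm, spermidine synthase, had 0.13 (SE 0.09) and 0.21 (SE 0.08) on its 2 probes. Sat1, which marks polyamines for export and breakdown, had -0.09 (SE 0.13), and Smox, spermine oxidase, 0.02 (SE 0.15) and 0.15 (SE 0.11). None of these probes passed the threshold over all probes.

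The compartments in which the pumps work were examined in the same way, against 0.147% of all named genes called and 2021 of 14265 at an unadjusted p below 0.05. With so low a share, 0 calls in a list of this size sets it apart in no way. Of 32 genes of lysosomal homeostasis and parkinsonism 31 were tested and 0 passed (limma; 1 at an unadjusted p below 0.05), with a median log2 change of 0.02. The median was -0.14 in scan 1, where 23 of the 31 were negative, and 0.08 for the scan 2 arrays. Over all named genes it was -0.07 in scan 1, where 8645 of 14265 were negative, and 0.06 for the scan 2 arrays. Among the lysosomal list genes above background on all arrays, the largest differences were those of Tfeb (-0.29, SE 0.10) and Vps13c (0.27, SE 0.21). Tfeb is a master regulator of lysosomal genes and Vps13c a lipid transfer protein. All 37 genes of ER membrane protein insertion and removal, the setting of Atp13a1, were tested and 0 passed (limma; 5 at an unadjusted p below 0.05). Their median was 0.10, with 28 positive and 9 negative, where all named genes had 7701 positive and 6564 negative. The median of this list was less than 0.01 in scan 1 and 0.11 for the scan 2 arrays. The largest were Sec63 (0.41, SE 0.31, and 0.24 on a second probe), a partner of the Sec61 channel, and Ssr2 (0.32, SE 0.09) of the translocon-associated complex. The list also held Snd1 (0.30, SE 0.12), which in mouse encodes a Tudor-domain nuclease and not the yeast insertion factor of the same name. Without it, a check added after seeing the data, 0 of 36 passed (limma; 4 at an unadjusted p below 0.05) and the median was 0.09.

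The wider P-type ATPase family also held no calls. Of 32 other members 25 were tested and 0 passed (limma; 8 at an unadjusted p below 0.05, against 2021 of 14265 named genes). The median log2 change was -0.11, with 11 positive and 14 negative, beside 7701 and 6564 over all named genes. Values ran from -0.84 to 0.48, and none of the 25 reached the -1.67 of Atp13a4. Only 52 of all 24661 tested probes lay below that value and Atp13a4 was chosen for it, so nothing is read from this. Atp8b2, a phospholipid flippase, had -0.84 (SE 0.28, adjusted p = 0.252), with -0.22 in scan 1 and -1.15 for the scan 2 arrays. Atp2b2, a plasma membrane calcium pump, had -0.54 (SE 0.13, adjusted p = 0.199), with -0.34 and -0.64.

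**Figure D4:**
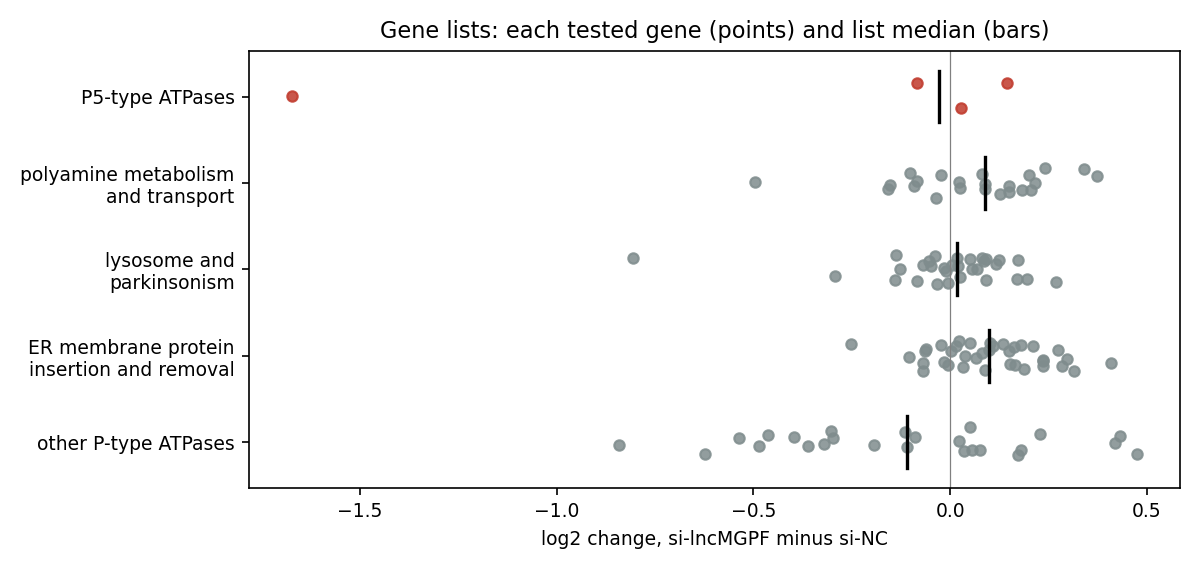
Log2 change (si-lncMGPF minus si-NC) of every tested gene of 5 lists, 1 point per gene at its brightest probe, with a bar at the list's median and vertical scatter added for legibility. Atp13a4, chosen for its difference, stands at -1.67, and the other lists reach -0.84 at the lowest.

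Among 12462 named genes above background on all arrays, the profiles closest to Atp13a4 over the 6 arrays were those of Clu, Myl2, Try4, Gzme and Fxyd6. Each gene was taken at its brightest probe, and its other probes are not given here. Closeness was the root mean square difference between centred log2 profiles. It was 0.164 for Clu, 0.177 for Myl2, 0.213 for Try4 and for Gzme, and 0.261 for Fxyd6, with the next gene at 0.321. Pearson's r with Atp13a4 was 0.97 to 0.99, over 6 arrays that fall into the same 2 groups. Clu, the secreted chaperone clusterin, came closest, with -3.49, -3.35 and -3.31 in si-lncMGPF, against -2.00, -1.88 and -1.98 in si-NC. Myl2, a regulatory myosin light chain, had -3.98, -3.73 and -3.71 in si-lncMGPF, against -2.40, -2.17 and -2.31 in si-NC. In scan 1 the 5 genes differed from the si-NC mean by -1.69 to -1.23, and the scan 2 arrays by -1.42 to -1.30. The match follows from large falls shared by the same 2 groups of arrays, and it is a description of these arrays.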

How the data were processed

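Per the file headers, the deposited values are linear intensity, the processed signal of Agilent Feature Extraction 11.0.1.1, which subtracted background and removed spatial trends within each array. The series table repeats them exactly, at 44397 of 44397 spots on each array. Outlier spots (117 to 134 per array) were left out and spots of a probe averaged. Values were log2 of the processed signal over the array's 75th percentile, with no pseudocount. This hides a shift shared by most transcripts. Testing needed a signal well above background throughout at least 1 group, which 24661 of 39429 probes had. Accessions were matched to RefSeq without versions, which named 27234 probes. A gene's brightest probe stood for it, and named genes have their other probes beside it. The test was lmFit and eBayes without covariates (R 4.3.3, limma 3.58.1), adjusted by Benjamini-Hochberg over all tested probes at 0.05. The code was tested on simulated data. Precision is limited by having 3 arrays a group.

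The members and lists were chosen with earlier results of these data known. Named genes were all members, list members that passed, the 3 with the largest difference per list above background on all arrays, the 5 nearest annotated genes on each side of Atp13a4, and the 5 closest profiles (Gm and Rik names left out). Some genes this rule names are not reported here. Alternatives were other scalings, normexp background correction, other filters, an intensity trend, scan and replicate number as blocks, averaging a gene's probes, and dropping each array in turn. Normexp used median spot signals, since the tables used here lack mean ones. Probe sequences were not used here.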

Additional observations from a re-analysis of the deposited data

How the results depend on the processing

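The log2 change of Atp13a4 was negative under all 20 alternatives, from -1.71 to -0.88, and passed limma's threshold under 11. Leaving out single arrays gave -1.71 to -1.63 for Atp13a4, -0.09 to 0.20 for Atp13a1, -0.16 to 0.06 for Atp13a2 and 0.000391 to 0.33 for Atp13a3. Normexp with an offset of 50, 25, 10 or 0 gave Atp13a4 -0.88, -1.07, -1.21 and -1.33, and normexp fitted on negative control spots -1.29; the last 4 of these 5 settings were chosen after seeing the data. The cause of these differences from -1.67 was not tested. With scan as a block, and equally in scan 1 alone, Atp13a1 had -0.33, Atp13a2 -0.38 and Atp13a3 0.43; both settings estimate the difference of 1 si-lncMGPF array. None of these 3 paralogs passed under any of their 20 alternatives. Atp13a5 has no value under any filter that needs signal above background.

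The count of called probes was 26 (7 higher, 19 lower). It was 6 (1 higher, 5 lower) with quantile normalization, 8 (4 and 4) with normexp at an offset of 50, 10, 14 and 12 at offsets of 25, 10 and 0, 14 with normexp on negative controls, 10 with scan as a block and 1 in scan 1 alone. It was 0 with no filter on dim probes (limma, 5277 at an unadjusted p below 0.05). Leaving out single arrays gave 0 to 4105, the highest without si-lncMGPF replicate 1, when group and scan coincide; calls in the 4 lists then ran from 0 to 14. With the replicate number as a block 0 probes passed (limma, 4430 at an unadjusted p below 0.05), Atp13a4 among those lost at an unchanged log2 change of -1.67. Deviations of same-numbered arrays correlated at 0.18, 0.32 and -0.06. Replicates 1 and 2 of si-lncMGPF correlated best with their own number, and replicate 3 did not. Whether the numbers pair the samples is therefore not settled, and the main fit did not use them. Dim probes, Atp13a5 and the second Atp13a4 probe among them, are limited by the background, which was higher in scan 2.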
